A study of Mus musculus with 30 samples.

Results

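The response to nuclear GRHL2 was measured in mouse naive embryonic stem cells that lack both KMT2C and KMT2D, after 8 h of tamoxifen. The comparison took 6 of the 30 libraries of the study, chosen by the line, treatment and time that their labels give, and covered all tested genes. All 6 libraries came from cells of a C57BL/6J x 129 background with the genotype Kmt2cKO, Kmt2dKO and GRHL2-ERT, kept in the naive state by serum, LIF and inhibitors of MEK and GSK3. GRHL2-ERT is GRHL2 joined to a hormone-binding domain of the estrogen receptor, and tamoxifen brings such fusions into the nucleus. 3 libraries came from cells given tamoxifen for 8 h and 3 from cells given ethanol for 8 h. The lines are described as clones picked for similar GRHL2 levels after transposition of the GRHL2-ERT system. Grhl2 tags nonetheless differed between the lines, as given below. The promoter that drives the system is not given in the labels. Other groups used here were the same line at 16 h and GRHL2-ERT cells with the genotype Kmt2cKO and Kmtd fl/fl at 8 h, each with 3 tamoxifen and 3 ethanol libraries, and 3 tamoxifen libraries at 8 h of Kmt2cKO and Kmtd fl/fl cells without GRHL2-ERT. No double-KO library without GRHL2-ERT was among the samples analysed here, so tamoxifen alone and nuclear GRHL2 cannot be told apart within this line.

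GRHL2 belongs to the Grainyhead family of transcription factors, which bind DNA motifs built around paired CNNG cores and switch on genes of cell junctions and polarity in epithelia. It is a factor of the epithelial state and is known to oppose mesenchymal genes. KMT2C and KMT2D are the catalytic subunits of a pair of related complexes that methylate histone H3 at enhancers and work with the acetyltransferase p300. Naive embryonic stem cells resemble the early epiblast and hold E-cadherin junctions. The comparison asks which genes nuclear GRHL2 still changed with both enzymes absent.

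The upstream sequences shown here are those of the 3 genes that were called whichever of the 6 libraries was left out. They are the 250 bases before the start of each gene, from RefSeq on GRCm38.p6, 5′ to 3′ on the gene's strand, with the letters ACCGGT in capitals, the 6-letter centre of the Grainyhead palindrome AACCGGTT.
Epcam, chr17:87635729-87635978, plus strand: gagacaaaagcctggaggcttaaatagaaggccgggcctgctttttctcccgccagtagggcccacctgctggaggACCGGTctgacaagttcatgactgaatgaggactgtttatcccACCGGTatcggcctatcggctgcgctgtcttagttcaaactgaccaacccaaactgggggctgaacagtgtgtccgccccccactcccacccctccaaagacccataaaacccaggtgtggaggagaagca
Cldn4, chr5:134946935-134947184, minus strand: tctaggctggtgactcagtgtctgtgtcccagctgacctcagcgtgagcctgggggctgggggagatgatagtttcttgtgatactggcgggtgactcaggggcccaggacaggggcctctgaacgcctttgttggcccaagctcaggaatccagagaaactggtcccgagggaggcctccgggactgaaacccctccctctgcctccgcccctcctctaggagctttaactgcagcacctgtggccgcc
Tmem54, chr4:129105298-129105547, plus strand: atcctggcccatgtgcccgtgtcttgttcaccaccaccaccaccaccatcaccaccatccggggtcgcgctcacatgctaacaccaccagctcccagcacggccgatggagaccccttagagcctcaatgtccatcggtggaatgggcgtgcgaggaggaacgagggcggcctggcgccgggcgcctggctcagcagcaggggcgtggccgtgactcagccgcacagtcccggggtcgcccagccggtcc

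The Epcam sequence holds 2 copies of ACCGGT, which begin 174 and 131 bases before the start, and the Cldn4 and Tmem54 sequences hold none. The search was made in windows of 300 bases (250 before and 50 after the start), on both strands at once since these motifs read the same on each. ACCGGT stood in 3.27% of the 12064 windows of tested genes, AACCGGTT in 0.265% and AACNNGTT in 3.30%, where each AACCGGTT also counts under the other motifs. ACCGGT was added after the sequences were read. Of the 12 called genes, 8 had a window, and ACCGGT was found in that of Epcam only, with neither longer motif in any of the 8. Ppl, Ncam1, Lefty2 and Gm13889 had no entry. These matches describe letters in a short window and say nothing of where GRHL2 binds.

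Tamoxifen replicate 2 stood apart from the other libraries. Recovered depth was 20.4, 22.1 and 19.8 M reads in ethanol replicates 1 to 3 and 16.3, 8.86 and 18.4 M reads in tamoxifen replicates 1 to 3. Rn45s, the ribosomal RNA precursor, took 7.37% of reads in tamoxifen replicate 2 and 3.42% to 4.82% in the other 5. The interquartile range of the differences from the ethanol mean, over all tested genes, was 1.07 on the log2(CPM + 1) scale in that library and 0.224 to 0.423 in the others (CPM is counts per M counts of a library). In it 2732 genes (22.0%) lay over 1 log2 unit from the ethanol mean, against 266 and 62 in tamoxifen replicates 1 and 3. The first principal component of the 6 libraries held 68.3% of the variance and gave scores of 75.2 to tamoxifen replicate 2 and between -31.2 and 5.01 to the rest. The labels name no preparation batch, and how far depth or RNA quality shaped the results was not tested.

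**Figure D1:**
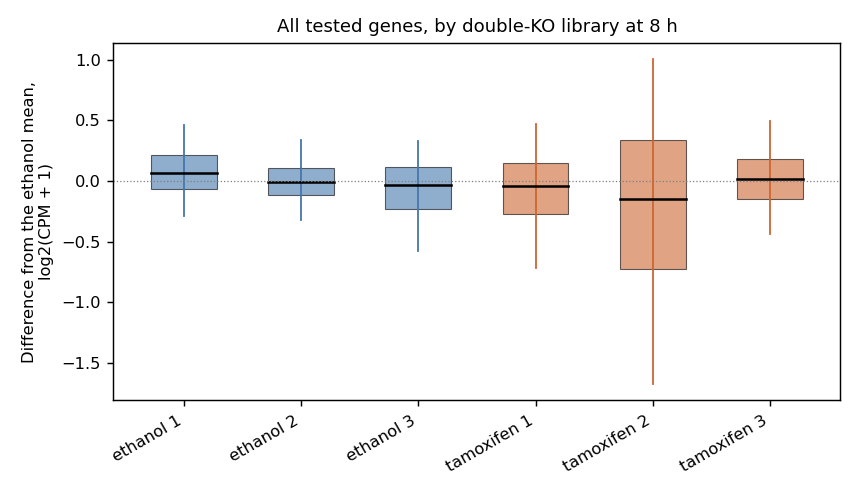
Difference of each library from the mean of the 3 ethanol libraries over 12414 genes, on the log2(CPM + 1) scale; lines span the 5th to 95th percentile, boxes the quartiles, and the black bar is the median. The box of tamoxifen replicate 2 is 1.07 tall, against 0.224 to 0.423 in the other 5 libraries, and its median is the lowest at -0.15.

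No threshold was set for naive stem cell markers, so their presence alone does not settle the naive label. Each of 8 naive markers was present in all 6 libraries, the lowest value being 50.7 CPM for Esrrb in tamoxifen replicate 2. Levels of several of them were unusual in that library, where Pou5f1 had 1945 CPM against 621 to 846 CPM in the other 5, and Nanog had 190 CPM against 400 to 617 CPM. Summed tags of neuroectoderm markers (10 of 14 in the table) ran from 252 to 290 CPM under ethanol and from 215 to 224 CPM under tamoxifen. Those of primitive endoderm (11 of 15) ran from 394 to 429 CPM and from 328 to 480 CPM, with Sox17 and Sox7 not in the table. Those of trophoblast (15 of 19) ran from 1111 to 1318 CPM and from 1155 to 1342 CPM, with Cdx2 and Elf5 not in the table. Mesoderm markers (6 of 12) ran from 15.4 to 17.4 CPM and from 12.5 to 15.8 CPM. In bulk RNA, fewer cells of a type and less RNA per cell cannot be told apart.

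Tags of Grhl2 (mm10 chromosome 15, 37233036 to 37363569) had 39.1, 32.4 and 52.2 CPM in the ethanol libraries and 58.6, 125 and 51.2 CPM in the tamoxifen libraries. Tamoxifen replicate 2 held the highest value and the groups overlapped; the log2 fold change was 0.82 ± 0.25 SE (limma adjusted p = 0.14), and 0.43 without that library. Whether tags of the transgene and of the native gene were counted together is not given in the sources used here. In Kmt2c-KO cells at 8 h, Grhl2 had 2.66 ± 0.831 CPM (SD, n = 3) without GRHL2-ERT. With GRHL2-ERT it had 178 ± 28.3 CPM under ethanol and 170 ± 16.4 CPM under tamoxifen. Both of these means lay above every double-KO value given here. Esr1 had 12.9, 18.5 and 10.2 CPM under ethanol and 6.91, 1.02 and 15.8 CPM under tamoxifen, again with the extreme in tamoxifen replicate 2. Kmt2c had 29.6, 26.2 and 32.6 CPM under ethanol and 24.8, 19.8 and 26.0 CPM under tamoxifen, and Kmt2d had 9.69, 13.6 and 5.77 CPM against 7.77, 7.79 and 6.30 CPM. The libraries count tags near the 3′ end, and the labels do not give the deleted parts, so these tags do not check the knockouts.

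With all 6 libraries, 12 of 12414 genes (0.0967%) were called at an adjusted p under 0.05, of which 8 rose (0.0644%) and 4 fell (0.0322%). The genes that rose were Epcam, Cldn4 and Ppl, which are on the list of GRHL2 epithelial targets, and Tmem54, Anxa9, Arap2, Fabp3 and Wfdc2. Those that fell were Lefty2, Ncam1, Ccnd3 and Gm13889, the last named outside the rule for named genes. Without tamoxifen replicate 2, 11 of 12410 genes (0.0886%) were called, 8 up (0.0645%) and 3 down (0.0242%), and 9 of them were among the 12. Genes at an unadjusted p under 0.05 went from 2520 (20.3%) with that library to 632 (5.09%) without it, and 443 were common to both. A scaling by median of ratios in place of CPM called 13 genes, 11 up and 2 down, of which 10 were among the 12, and Ccnd3 and Gm13889 were not (adjusted p = 0.10 and 0.055).

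The count depended on single libraries and on where the spread was taken from. It was 4 without ethanol replicate 2, 54 without ethanol replicate 3, 106 without tamoxifen replicate 1 and 3146 without tamoxifen replicate 3, and 4, 10, 11 and all 12 of the 12 genes were called in those fits. The fit of all 30 libraries shares 1 estimate of spread over 10 groups. The median SD over genes was 0.357 in the tamoxifen group, the highest of the 10, 0.210 in the ethanol group, and 0.180 over tamoxifen replicates 1 and 3. In a fit of the 6 libraries alone limma called 0 genes, with 305 at an unadjusted p under 0.05, and each of the 12 genes had an adjusted p of 0.78. Epcam, Cldn4 and Tmem54 were called in all 6 fits that left out 1 library, Anxa9, Arap2, Fabp3, Lefty2 and Ncam1 in 5, Ccnd3 in 4, Wfdc2 in 3, and Ppl and Gm13889 in 2.

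**Figure D2:**
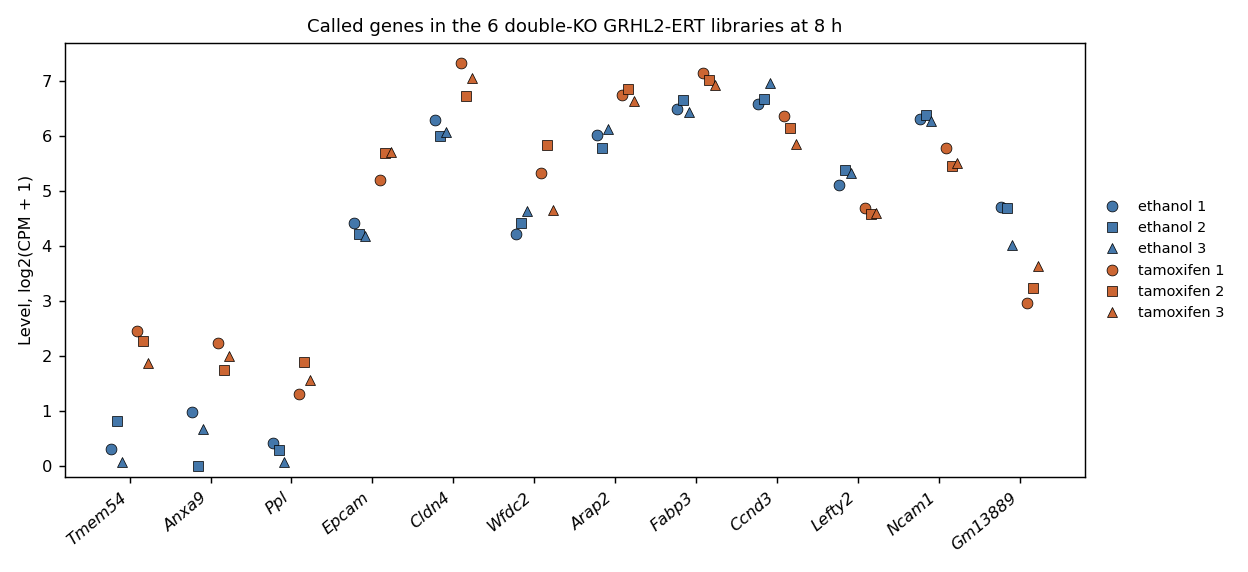
Level of each of the 12 called genes in the 6 double-KO libraries at 8 h, as log2(CPM + 1); blue marks are ethanol, orange marks tamoxifen, and shapes are replicates 1 to 3. For all 12 genes the groups do not overlap, and Wfdc2 in tamoxifen replicate 3 (24.2 CPM) lies next to ethanol replicate 3 (23.9 CPM). The genes were called on these same libraries, so the lack of overlap adds no support. Over all tested genes, tamoxifen lies wholly above ethanol for 3.83% and wholly below for 5.15%.

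Epcam (chromosome 17, 87635979 to 87651129), which codes for an epithelial cell adhesion molecule of the cell surface, had 20.4, 17.6 and 17.1 CPM under ethanol and 35.8, 50.5 and 51.4 CPM under tamoxifen. All 3 tamoxifen libraries lay well above the ethanol range, and the log2 fold change was 1.26 ± 0.15 SE (limma adjusted p = 3.1e-05), or 1.18 without tamoxifen replicate 2 (adjusted p = 6.2e-05). Cldn4 (chromosome 5, 134945119 to 134946934), a claudin that forms part of the tight junction barrier, had 77.2, 62.5 and 65.7 CPM under ethanol and 159, 105 and 131 CPM under tamoxifen. Here tamoxifen replicate 2 was the lowest of its group, and the log2 fold change of 0.92 ± 0.13 (limma adjusted p = 7.4e-04) became 1.07 without it (adjusted p = 1.5e-05). Tmem54 (chromosome 4, 129105548 to 129111626), which codes for a membrane protein, had 0.245, 0.771 and 0.0506 CPM under ethanol and 4.46, 3.84 and 2.66 CPM under tamoxifen. It had the highest fold change of the 12, 1.80 ± 0.25 (limma adjusted p = 4.1e-04), from ethanol levels in which replicate 3 lay under the floor of 3 reads. A pseudocount of 1 CPM was added before the log, so fold changes of genes this low are understated.

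Ppl (chromosome 16, 5086291 to 5132421) codes for periplakin, which links desmosomes to intermediate filaments. It had 0.343, 0.227 and 0.0506 CPM under ethanol and 1.47, 2.71 and 1.95 CPM under tamoxifen, with tamoxifen replicate 2 the highest. Its log2 fold change was 1.32 ± 0.26 (limma adjusted p = 0.032), and without that library it was 1.17 and did not pass (adjusted p = 0.20). Anxa9 (chromosome 3, 95296096 to 95307176), an annexin, had 0.979, 0 and 0.607 CPM under ethanol and 3.73, 2.37 and 2.99 CPM under tamoxifen. Its fold change of 1.44 ± 0.25 (limma adjusted p = 8.6e-03) was 1.56 without tamoxifen replicate 2 (adjusted p = 8.8e-03).

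Arap2 (chromosome 5, 62602445 to 62766159), a GTPase-activating protein for Arf proteins, had 63.5, 53.9 and 68.8 CPM under ethanol and 106, 114 and 97.9 CPM under tamoxifen. The ethanol range ended well under the lowest tamoxifen value, with a log2 fold change of 0.77 ± 0.12 (limma adjusted p = 2.4e-03) and 0.71 without tamoxifen replicate 2 (adjusted p = 8.8e-03). Fabp3 (chromosome 4, 130308595 to 130315463), a fatty acid binding protein, had 88.5, 98.9 and 85.3 CPM under ethanol and 140, 127 and 120 CPM under tamoxifen. Its change was the smallest of the 8 increases, 0.50 ± 0.09 (limma adjusted p = 0.020), and 0.51 without tamoxifen replicate 2 (adjusted p = 0.018). Wfdc2 (chromosome 2, 164562413 to 164568510), a secreted protein with protease inhibitor domains, had 17.6, 20.5 and 23.9 CPM under ethanol and 39.0, 56.1 and 24.2 CPM under tamoxifen. The groups were nearly in contact, and its fold change of 0.85 ± 0.17 (limma adjusted p = 0.032) was 0.56 and did not pass without tamoxifen replicate 2 (adjusted p = 0.17).

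Of the genes that fell, Lefty2 (chromosome 1, 180893108 to 180899103), a secreted antagonist and target of Nodal signalling, had 33.4, 40.7 and 39.1 CPM under ethanol and 24.8, 22.9 and 23.3 CPM under tamoxifen. The tamoxifen libraries lay close together, and the log2 fold change was -0.65 ± 0.11 (limma adjusted p = 3.6e-03) with tamoxifen replicate 2 and -0.62 without it (adjusted p = 8.8e-03). Ncam1 (chromosome 9, 49502136 to 49798925), a neural cell adhesion molecule, had 78.0, 82.0 and 76.0 CPM under ethanol and 54.1, 42.8 and 44.2 CPM under tamoxifen. Its fold change was -0.74 ± 0.12 (limma adjusted p = 3.6e-03), and -0.67 without tamoxifen replicate 2 (adjusted p = 0.018). Ccnd3 (chromosome 17, 47505051 to 47599691), the G1 cyclin D3, had 94.7, 101 and 124 CPM under ethanol and 81.2, 69.1 and 56.8 CPM under tamoxifen. Both groups were spread more widely, with a fold change of -0.62 ± 0.12 (limma adjusted p = 0.020) and -0.63 without tamoxifen replicate 2 (adjusted p = 0.019). Gm13889 (chromosome 2, 93955810 to 93957201), a predicted protein-coding gene, had 25.2, 24.7 and 15.2 CPM under ethanol and 6.79, 8.47 and 11.3 CPM under tamoxifen. It had the deepest fall, -1.20 ± 0.24 (limma adjusted p = 0.033), and did not pass without tamoxifen replicate 2 (-1.18, adjusted p = 0.087).

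Leaving out tamoxifen replicate 2 brought in 2 genes, named here for that reason and outside the rule. Cd24a, a surface sialoglycoprotein of epithelial and progenitor cells, had 42.7, 41.2 and 52.0 CPM under ethanol and 70.3, 39.3 and 67.0 CPM under tamoxifen. Tamoxifen replicate 2 was the lowest of all 6 libraries, and the log2 fold change was 0.33 with it (limma adjusted p = 0.20) and 0.60 without it (adjusted p = 8.8e-03). Stx3, a syntaxin of apical membrane fusion, had 28.2, 26.4 and 29.97 CPM under ethanol and 43.5, 32.0 and 39.5 CPM under tamoxifen. Its fold change went from 0.42 (limma adjusted p = 0.13) to 0.54 without that library (adjusted p = 0.026).

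The 12 genes were next compared in the other groups, whose libraries shared in the estimate of spread behind the calls but not in the 8 h fold changes. In the same line at 16 h, where 5 of 12414 genes (0.0403%) were called, 4 up (0.0322%) and 1 down (0.00806%), all 8 genes that rose were again above ethanol, and Tmem54, Epcam, Cldn4 and Arap2 passed the test. Tmem54 had 0.480 ± 0.286 CPM (SD, n = 3) in ethanol and 5.23 ± 0.510 CPM under tamoxifen at 16 h, a log2 fold change of 2.09. Epcam had 14.6 ± 1.85 CPM and 32.0 ± 4.87 CPM, a fold change of 1.08, and Cldn4 had 41.3 ± 1.48 CPM and 77.4 ± 3.15 CPM, a fold change of 0.89. Fabp3 lay at 131 ± 8.72 CPM under ethanol and 136 ± 10.6 CPM under tamoxifen, a fold change of 0.06. All 4 genes that fell at 8 h were below ethanol at 16 h and none of them passed, with fold changes of -1.09 for Gm13889, -0.45 for Lefty2, -0.12 for Ccnd3 and -0.08 for Ncam1. A test of the difference of the responses, 16 h minus 8 h, called 0 genes by limma, with 714 (5.75%) at an unadjusted p under 0.05. The smallest adjusted p among the 12 was 0.77, so no change of the response with time was shown for any of them.

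In Kmt2c-KO cells with GRHL2-ERT at 8 h, where 615 genes (4.95%) were called, 362 up (2.92%) and 253 down (2.04%), 6 of the 8 genes that rose and all 4 that fell passed in the same direction. Tmem54 had 0.4997 CPM under ethanol and 11.5 CPM under tamoxifen there, a log2 fold change of 3.08, and Ppl had 0.611 and 6.10 CPM, a fold change of 2.22. Epcam started higher, at 47.6 CPM under ethanol, and reached 81.4 CPM, a fold change of 0.77 (limma adjusted p = 1.4e-03). Lefty2 went from 197 to 93.9 CPM, with a fold change of -1.05, and Ncam1 from 53.5 to 25.3 CPM, with a fold change of -1.04. Wfdc2 was the exception in sign, with 185 CPM under ethanol and 169 CPM under tamoxifen (-0.12).

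The difference of responses at 8 h, double-KO minus Kmt2c-KO, passed for 177 genes (1.43%), 65 above 0 (0.524%) and 112 below (0.902%), and for 1 of the 12, Wfdc2 (0.97 ± 0.24 SE; limma adjusted p = 0.037). Wfdc2 did not pass this test without tamoxifen replicate 2 (0.69, adjusted p = 0.066). For Tmem54 the difference was -1.28 ± 0.35 (limma adjusted p = 0.056) and for Ppl -0.90 ± 0.37 (adjusted p = 0.15). For Epcam it was 0.49 ± 0.21 (limma adjusted p = 0.15) and for Cldn4 0.17 ± 0.19 (adjusted p = 0.59). Ppl means under ethanol and tamoxifen were 0.207 and 2.04 CPM in double-KO cells, and 0.611 and 6.10 CPM in Kmt2c-KO cells. At such levels the pseudocount of 1 CPM understates the double-KO response more. The -0.90 therefore does not show a weaker rise of Ppl in double-KO cells. A p above the threshold does not show that the lines respond alike. Grhl2 tags were higher in the Kmt2c-KO line with GRHL2-ERT, and their part in these differences was not tested. In Kmt2c-KO cells that lack GRHL2-ERT, all 12 genes were measured after 8 h of tamoxifen, and no test was made against the ethanol libraries of the line with GRHL2-ERT. Cldn4 had 76.5 ± 7.76 CPM (SD, n = 3) without GRHL2-ERT, under the 107 ± 6.46 CPM of those ethanol libraries. Ccnd3 had 129 ± 11.7 CPM, which lay between 159 ± 15.0 CPM in those ethanol libraries and 113 CPM with nuclear GRHL2. Wfdc2 had 151 ± 15.0 CPM against 185 ± 15.0 CPM. The other 9 genes had means without GRHL2-ERT of 0.881 CPM for Tmem54, 0.257 CPM for Ppl, 1.04 CPM for Anxa9, 45.7 CPM for Epcam, 45.6 CPM for Arap2, 276 CPM for Fabp3, 186 CPM for Lefty2, 52.2 CPM for Ncam1 and 1.72 CPM for Gm13889. The ethanol means of the line with GRHL2-ERT for Anxa9, Arap2, Fabp3 and Gm13889 were 1.09, 49.0, 279 and 1.64 CPM.

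**Figure D3:**
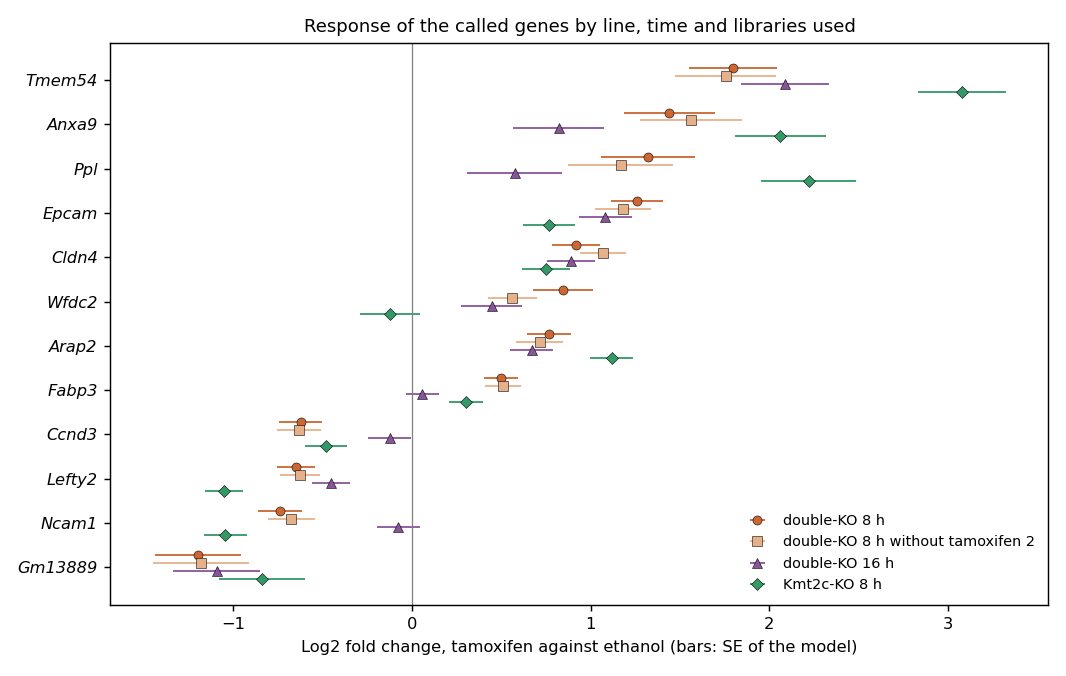
Log2 fold change of tamoxifen against ethanol on the log2(CPM + 1) scale for the 12 called genes, with bars for the SE of the model, in double-KO cells at 8 h with and without tamoxifen replicate 2, in double-KO cells at 16 h and in Kmt2c-KO cells at 8 h. Tmem54 runs from 1.76 to 3.08, Epcam from 0.77 to 1.26, and Wfdc2 is the gene on the other side of 0 in Kmt2c-KO cells (-0.12).

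Beyond the called genes, all 3 tamoxifen libraries were above all 3 ethanol libraries for 475 genes (3.83%) and below them for 639 (5.15%). The 10 with the smallest p in each direction that were not called are given as values. The higher ones were Iqgap1, Krt7, Atox1, Dsg2, Ren2, Hapln4, Dkkl1, Sept1, Tapbp and 2810429I04Rik, with log2 fold changes from 0.43 to 1.10 and adjusted p from 0.064 to 0.088. Krt7, a keratin of simple epithelia, had 2.10, 1.59 and 2.53 CPM under ethanol and 5.32, 7.34 and 4.34 CPM under tamoxifen (1.10 ± 0.24). Dsg2, a cadherin of the desmosome, had 67.5, 63.2 and 72.3 CPM against 88.6, 89.8 and 95.1 CPM (0.43 ± 0.09), with tamoxifen replicate 2 in the middle of its group. Iqgap1, a scaffold protein of the cell cortex, had 140, 109 and 141 CPM against 169, 234 and 170 CPM (0.54 ± 0.12). Dsg2 and Iqgap1 passed under median-of-ratios scaling (adjusted p = 0.032 and 0.039). In 7 of these 10 genes tamoxifen replicate 2 lay farthest of the 3 from the ethanol mean, and all 10 were above ethanol at 16 h, with none passing there.

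The lower ones were Dqx1, Msrb3, Ep300, Spc24, S1pr1, Gm35612, Vim, Twsg1, Dbx2 and Got1, with log2 fold changes from -1.56 to -0.45 and adjusted p from 0.064 to 0.076. Ep300, which codes for the acetyltransferase p300 that works with KMT2C and KMT2D, had 69.9, 65.2 and 69.1 CPM under ethanol and 45.4, 48.9 and 45.7 CPM under tamoxifen. Both groups were tight, and its fold change of -0.53 ± 0.12 was -0.57 without tamoxifen replicate 2 (limma adjusted p = 0.082) and 0.13 at 16 h. Vim, which codes for the mesenchymal filament protein vimentin, had 153, 141 and 95.1 CPM under ethanol and 62.9, 70.8 and 94.5 CPM under tamoxifen (-0.75 ± 0.17). Its groups met at ethanol replicate 3 and tamoxifen replicate 3. Msrb3, a methionine sulfoxide reductase, had 10.6, 9.70 and 6.12 CPM against 2.26, 0.677 and 5.32 CPM (-1.56 ± 0.34). In 8 of these 10 genes tamoxifen replicate 2 lay farthest from the ethanol mean, and 7 were below ethanol at 16 h. The shares of all genes were not taken for these counts or for those of the higher genes. Over all tested genes tamoxifen replicate 2 had the widest spread, and the median fold change at 16 h was -0.0013.

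Gene lists were described by their counts and medians beside the median over all genes tested, -0.07 on the log2 scale, or -0.02 without tamoxifen replicate 2. Over all tested genes, 0.0644% rose and 0.0322% fell, and 58.4% had a fold change below 0. In the list of GRHL2 epithelial targets, 32 of 37 genes were tested, of which 3 (Epcam, Cldn4 and Ppl) rose and none fell. Its median fold change was 0.07, and 0.25 without tamoxifen replicate 2. The medians by library were 0.21, -0.06 and 0.24 in tamoxifen replicates 1 to 3, against 0.15, -0.06 and -0.03 in ethanol replicates 1 to 3. Tamoxifen replicate 2 lay apart from the other 2 and beside ethanol replicate 2, and the groups overlapped. In Kmt2c-KO cells the median of the same list was 0.74, against 0.03 over all genes, with 14 genes up and 1 down where 2.92% and 2.04% of all genes were. At 16 h in double-KO cells it was 0.19, against -0.0013 over all genes. The next member by p, Esrp1, an epithelial splicing regulator, had 0.734, 0.0907 and 0.810 CPM under ethanol and 2.45, 1.24 and 2.50 CPM under tamoxifen (0.99 ± 0.27; limma adjusted p = 0.13). Cdh1, which codes for E-cadherin and is named outside the rule, had 101, 92.5 and 109 CPM under ethanol and 146, 93.7 and 119 CPM under tamoxifen (0.22 ± 0.13; limma adjusted p = 0.33), and its fold change was 0.39 without tamoxifen replicate 2 (adjusted p = 0.57).

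Of 24 tight junction and polarity genes tested, Cldn4 rose and 23 were not called, and the list's median was -0.06. F11r, which codes for the junctional adhesion molecule JAM-A, had 45.9, 45.1 and 52.1 CPM under ethanol and 64.0, 94.95 and 53.7 CPM under tamoxifen (0.52 ± 0.16; limma adjusted p = 0.15), and 0.30 without tamoxifen replicate 2. Cldn7, another claudin, had 1.76, 0.952 and 1.47 CPM against 2.32, 3.84 and 2.33 CPM (0.67 ± 0.27; adjusted p = 0.19). Amotl2, an angiomotin of the Hippo pathway, had 40.6, 33.2 and 26.4 CPM against 26.5, 8.81 and 31.6 CPM, and its fold change of -0.72 was -0.18 without tamoxifen replicate 2.

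The desmosome and adherens junction list had the highest median of the epithelial lists, 0.30 over 14 tested genes, and 0.28 without tamoxifen replicate 2. Only Ppl was called in it. Medians by library were 0.38, 0.36 and 0.24 in the tamoxifen libraries, and 0.03, -0.05 and 0.03 in the ethanol libraries, so these medians did not overlap. This was not particular to the list. Histone medians were 0.08, 0.40 and 0.14 against -0.05, 0.03 and 0.01, and those of primitive endoderm -0.22, -0.22 and -0.36 against 0.12, -0.05 and -0.06. Summed tags of the desmosome list overlapped, at 1012 to 1115 CPM under ethanol and 843 to 1142 CPM under tamoxifen. Evpl, which codes for the desmosomal envoplakin, had 1.52, 1.31 and 1.82 CPM under ethanol and 3.49, 5.08 and 3.04 CPM under tamoxifen (0.91 ± 0.28; limma adjusted p = 0.15). Pkp2, a plakophilin, had 17.4, 16.4 and 25.8 CPM against 25.9, 63.5 and 24.3 CPM, and its fold change of 0.78 was 0.35 without tamoxifen replicate 2.

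None of 7 simple keratins was called, and their median was 0.09, or 0.26 without tamoxifen replicate 2. Krt18 had 72.4, 78.6 and 92.6 CPM under ethanol and 119, 149 and 93.7 CPM under tamoxifen (0.54 ± 0.15; limma adjusted p = 0.13), while its partner Krt8, named outside the rule, had 86.4, 78.4 and 79.8 CPM against 106, 68.0 and 91.0 CPM (0.09 ± 0.15, and 0.26 without tamoxifen replicate 2). None of 17 genes of epithelial proteases, splicing and trafficking was called, with a median of 0.08, and 0.22 without tamoxifen replicate 2. Vamp8, a vesicle fusion protein, had 22.7, 16.0 and 18.2 CPM under ethanol and 30.2, 36.5 and 23.6 CPM under tamoxifen (0.63 ± 0.18; limma adjusted p = 0.13). Prss8, the membrane protease prostasin, had 0.881, 0.272 and 1.32 CPM against 2.45, 2.26 and 1.30 CPM (0.74 ± 0.29; adjusted p = 0.19).

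None of 21 mesenchymal genes was called, with 18 below ethanol and 3 above where 58.4% of all genes were below, and a median of -0.47, the lowest of the lists. The median was -0.42, -0.43 and -0.22 in tamoxifen replicates 1 to 3, against 0.11, 0.02 and -0.10 in the ethanol libraries, and -0.32 without tamoxifen replicate 2. It was -0.39 under median-of-ratios scaling and -0.19 with a pseudocount of 5 CPM. Of the 21 genes, 11 were below ethanol at an unadjusted p under 0.05, as were 14.1% of all tested genes, and 5 had all tamoxifen libraries below all ethanol libraries, as had 5.15% of all. These counts include tamoxifen replicate 2 and were not repeated without it. Over all genes, the share at an unadjusted p under 0.05 in either direction went from 20.3% to 5.09% without that library. Snai1, a repressor of epithelial genes, had 8.86, 7.07 and 3.39 CPM under ethanol and 1.71, 0.677 and 4.23 CPM under tamoxifen (-1.29 ± 0.34; limma adjusted p = 0.13). Its groups overlapped, and its fold change was -0.90 without tamoxifen replicate 2 (adjusted p = 0.73). Zeb1, a repressor that opposes GRHL2, had 30.1, 37.8 and 44.0 CPM against 25.4, 28.7 and 20.8 CPM (-0.55 ± 0.17; adjusted p = 0.15), and -0.66 without tamoxifen replicate 2. Zeb1 fell in Kmt2c-KO cells at 8 h (-1.22; limma adjusted p = 3.4e-05). Fn1, which codes for fibronectin, had 96.4, 90.3 and 80.4 CPM under ethanol and 66.1, 50.1 and 76.1 CPM under tamoxifen (-0.48 ± 0.13, and -0.32 without tamoxifen replicate 2). Feeder fibroblast markers, 6 of 12 of them tested and some shared with this list, summed to 288 to 309 CPM under ethanol and 243 to 314 CPM under tamoxifen, and their part in these values was not tested.

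**Figure D4:**
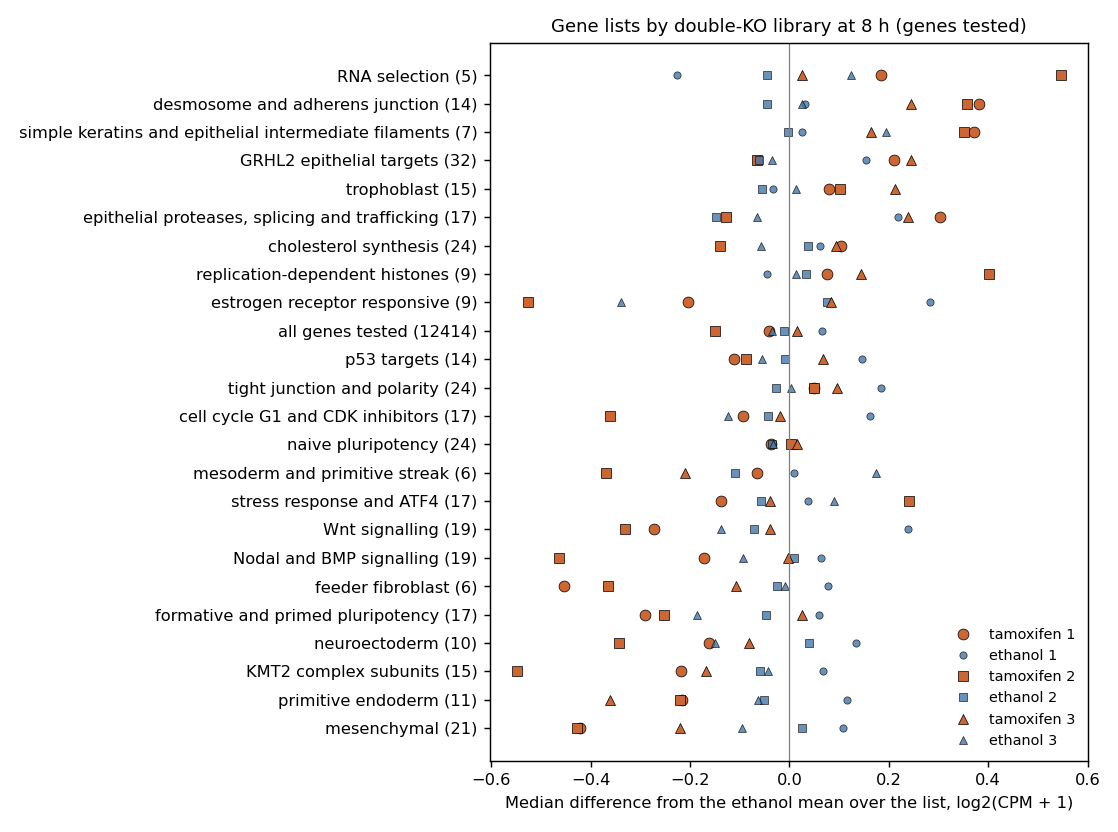
Median difference from the ethanol mean over each gene list with at least 5 tested genes, on the log2(CPM + 1) scale, for each of the 6 libraries; orange marks are tamoxifen, blue marks ethanol, and the number of tested genes is in brackets. The desmosome list lies at 0.24 to 0.38 in tamoxifen and the mesenchymal list at -0.43 to -0.22. The GRHL2 target list has tamoxifen replicate 2 at -0.06 and the other 2 at 0.21 and 0.24, with ethanol at -0.06 to 0.15.

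In the Nodal and BMP list, Lefty2 fell and 18 of 19 genes were not called, with a median of -0.25, or -0.12 without tamoxifen replicate 2. Apela, a peptide hormone of early embryos, had 277, 294 and 325 CPM under ethanol and 247, 200 and 213 CPM under tamoxifen (-0.44 ± 0.11; limma adjusted p = 0.099). Id3, a BMP target, had 251, 209 and 107 CPM against 83.6, 21.1 and 177 CPM, and its fold change of -1.37 was -0.54 without tamoxifen replicate 2. Of 10 neuroectoderm genes, Ncam1 fell, and Sox1, a neural transcription factor, had 69.3, 58.5 and 52.5 CPM against 43.1, 41.4 and 39.6 CPM (-0.52 ± 0.20; limma adjusted p = 0.19). Of 17 G1 cell cycle genes, Ccnd3 fell, and Cdk2 had 43.6, 43.3 and 34.9 CPM against 27.6, 12.6 and 36.0 CPM (-0.76, and -0.35 without tamoxifen replicate 2).

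Pluripotency genes were not called. The median was -0.10 over 24 naive genes and -0.17 over 17 formative and primed genes. Tfcp2l1, a naive transcription factor, had 273, 268 and 261 CPM under ethanol and 229, 183 and 212 CPM under tamoxifen (-0.36 ± 0.11; limma adjusted p = 0.14). Zic2, a formative transcription factor, had 20.4, 16.0 and 10.4 CPM against 8.26, 7.45 and 12.3 CPM (-0.66 ± 0.21; adjusted p = 0.15). None of 15 trophoblast genes was called, with a median of 0.10, or 0.23 without tamoxifen replicate 2. Rhox6, a homeobox gene of placenta and germ line, had 54.3, 53.5 and 59.1 CPM under ethanol and 96.8, 73.2 and 84.1 CPM under tamoxifen (0.59 ± 0.16; limma adjusted p = 0.13), and passed in Kmt2c-KO cells with 1.96. Of 11 primitive endoderm genes 10 were below ethanol, where 58.4% of all genes were, and none was called, with a median of -0.29. Gata6, a transcription factor of that lineage, had 3.28, 1.90 and 1.72 CPM against 0.612, 1.02 and 1.36 CPM (-0.71 ± 0.24; limma adjusted p = 0.16).

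In the remaining lists no gene was called: KMT2 complex subunits (15 tested, median -0.30, or -0.18 without tamoxifen replicate 2), Wnt signalling (19, -0.15), mesoderm (6, -0.29), two-cell-like state (3, -0.12), cholesterol synthesis (24, -0.03), p53 targets (14, -0.05), stress response (17, -0.0048), estrogen receptor responsive genes (9, -0.12), replication-dependent histones (9, 0.14) and transcripts that track RNA selection (5, 0.25). Without tamoxifen replicate 2 the median of the cholesterol list turned to 0.06, and those of the mesoderm, stress response, estrogen receptor and histone lists became -0.09, -0.11, -0.02 and 0.06. The KMT2 list is named by its main members and also holds the partner enzymes Ep300, Crebbp and Kdm6b. Kmt2c and Kmt2d, knocked out in this line, are in it too. In several of the remaining lists, single genes stood out in tamoxifen replicate 2. Bax, a p53 target, had 105 CPM in that library and 26.6 to 36.2 CPM in the other 5. Ddit3, a stress response factor, had 38.6 CPM in it and 11.1 to 17.9 CPM elsewhere. Paxip1, a subunit of the KMT2C and KMT2D complexes, had 3.50 CPM in it and 15.0 to 29.7 CPM elsewhere.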

How the data were processed

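Libraries were made with a QuantSeq 3′ kit and sequenced from a single end, per the labels' protocols. The authors deposited log2 values for 12428 genes in 30 library columns, and each value was the log2 of CPM plus an offset of 0.124871. Salmon, DESeq2 1.34.0 and the mm10 build appear in the submitters' processing notes, without the role of each. The aligner, its settings and the steps behind the CPM are otherwise not given in the sources used here.

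Values were returned to CPM. The read number of a library was derived from the steps between its low values, of which 94.5% to 97.6% were whole within 0.05 reads. Depth over all libraries was 8.86 to 22.1 M reads, median 16.2 M, and 3 reads in 1 library stood for 0.136 to 0.339 CPM. These floors cover counting error only. Genes were placed with GENCODE mouse release M21, in which 96.3% were found.

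The test was that of limma 3.58.1 (R 4.3.3) on log2(CPM + 1), two-sided, with a mean for each of 10 groups, a variance trend and robust moderation. It covered the 12414 genes that averaged 1 CPM or more in any group. p was adjusted by Benjamini-Hochberg over these, with calls at an adjusted p under 0.05. Fold changes carry the SE of the model and CPM the SD over libraries. The fit was also run on simulated data in which all libraries shared the same spread. That run held no library that stood apart as tamoxifen replicate 2 did, so it does not cover such data.

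The labels do not say whether replicates were separate cultures, so p measures only the spread between these libraries. The comparison and the 24 gene lists were chosen with earlier results of these data known. Named genes were the called genes other than predicted or clone names, the 10 in each direction with the smallest p among genes not called whose groups did not overlap, up to 4 members of each list by p, and Grhl2, Esr1, Kmt2c, Kmt2d and Rn45s. Genes outside the rule are marked. Alternatives were pseudocounts of 0.1 and 5 CPM, no filter, median-of-ratios scaling, voom and array weights, Rn45s as a covariate, a replicate block, the libraries of a comparison alone and leaving out each library.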

Additional observations from a re-analysis of the deposited data

Results flagged for a closer look

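For 13 of 113 named genes the response at 8 h differed between double-KO and Kmt2c-KO cells by a test of the difference itself (limma adjusted p under 0.05). Over all 12414 tested genes, 177 (1.43%) passed this test. Most named genes were picked by their p in the double-KO comparison at 8 h, which is part of the difference tested. Large differences were thereby favoured, and the count says nothing of the share among genes. Differences are given as double-KO minus Kmt2c-KO on the log2(CPM + 1) scale with the SE of the model, and are repeated without tamoxifen replicate 2.

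Wnt7b, a Wnt ligand, differed by -2.71 ± 0.33 (-2.88 without that library), with 0.53 in double-KO and 3.24 in Kmt2c-KO cells. Rhox6 differed by -1.37 ± 0.23 (-1.27), with 0.59 and 1.96 in the respective lines. Atox1, a copper chaperone, differed by -0.70 ± 0.16 (-0.87), with 0.53 and 1.23. For Tcl1, a co-activator of AKT in stem cells, the difference was 1.05 ± 0.26 (1.20), from responses of -0.63 and -1.69. Its means under ethanol and tamoxifen were 1.37 and 0.512 CPM in double-KO cells, and 18.4 and 5.05 CPM in Kmt2c-KO cells. The pseudocount of 1 CPM understates the double-KO response at such levels and so widens this difference. For Apela it was 0.62 ± 0.15 (0.69), from -0.44 and -1.06. Zfp42, a naive stem cell factor, had 0.97 ± 0.20 (0.69), from 0.38 and -0.59, and its double-KO response was 0.09 without tamoxifen replicate 2. Dppa4 had 0.89 ± 0.19 (0.74), from 0.42 (0.27 without that library) and -0.47. These 7 differences also passed without tamoxifen replicate 2, with limma adjusted p from 1.1e-05 to 0.019. The Kmt2c-KO libraries were uneven as well. Rn45s took 5.39%, 4.02% and 7.40% of reads in their ethanol replicates 1 to 3, and 3.47%, 3.10% and 3.29% under tamoxifen. How far this shaped the 7 differences was not tested.

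The other 6 did not pass without it, with adjusted p from 0.050 to 0.097. Wfdc2 differed by 0.97 ± 0.24 (0.69 without it), Sept1, a septin, by 1.21 ± 0.30 (0.93) and Msrb3 by -2.04 ± 0.48 (-1.56). Gata2, a trophoblast and blood transcription factor, differed by -1.84 ± 0.43 (-1.45), Ccng1, a p53 target, by -0.66 ± 0.16 (-0.48), and Hspa1b, a heat shock protein, by -1.92 ± 0.49 (-1.23). The double-KO responses of Gata2, Ccng1 and Hspa1b went from -0.49, -0.22 and -1.02 to -0.09, -0.04 and -0.33 without that library.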

How the results depend on the processing

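For double-KO tamoxifen against ethanol at 8 h (12 genes called), leaving out 1 library gave 4 to 3146 calls. The count was 36 with a pseudocount of 5 CPM and 0 with the libraries of the comparison alone, with or without tamoxifen replicate 2 (266 at an unadjusted p under 0.05 without it). It was 1 with array weights, whose estimate stopped before its tolerance, and 446 with weights estimated gene by gene, which gave tamoxifen replicate 2 a weight of 0.0829. Leaving that library out under median-of-ratios scaling gave 10. That setting, the gene-by-gene weights and the fit of the comparison alone without that library were chosen after seeing the data. With Rn45s as a covariate 11 genes were called, and with voom 14. For the difference between lines (177 genes), array weights gave 9, gene-by-gene weights 1313, the libraries of the contrast alone 5, a pseudocount of 5 CPM 294, Rn45s as a covariate 17, and leaving out 1 library 59 to 3090. For the difference between times, 0 genes were called in every setting run, with 171 to 2583 at an unadjusted p under 0.05. No called gene changed direction in any of them. A replicate block within line and time gave 8 calls (6 up, 2 down) for the 8 h comparison and 79 for the difference between lines. Each library's deviations from its group mean were correlated between ethanol and tamoxifen libraries. For same-numbered libraries these correlations of deviations were -0.003, -0.31 and -0.58, and none was the best for its library. Deviations within a group of 3 are not independent, and tamoxifen replicate 2 stood apart. The values therefore cannot decide whether libraries were paired by number. The causes of these shifts were not tested. Depth limits genes near 0.136 to 0.339 CPM.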
